A study of Mus musculus with 12 samples.

Results

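The 9 genes described here code for proteins that fasten basal keratinocytes to the basement membrane: *Itga6*, *Itgb4*, *Col17a1*, *Dst*, *Plec*, *Lama3*, *Lamb3*, *Itga3* and *Itgb1*. They were chosen by name as components of the hemidesmosome, of laminin-332 and of its second integrin receptor, with earlier results of these data known. All 9 were found among the 21947 loci of the RNA-Seq count table, and all 9 passed the filter on low counts in every comparison. Primary keratinocytes of newborn BALB/c mice were grown in medium whose calcium was raised to 0.12 mM, which starts their differentiation. Some cultures were transfected with 75 pmol of pooled siRNA, aimed at *Sbsn* in siSbsn and at no mouse gene in siControl, and were collected 48 hours later, while others received no siRNA. The 12 libraries were made in 2 batches, with 2 each of no siRNA, siControl and siSbsn in batch 1 and 3 each of siControl and siSbsn in batch 2.

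A hemidesmosome is the junction that ties the keratin filaments of a basal keratinocyte to the matrix under it. Its transmembrane core is the integrin of *Itga6* and *Itgb4* together with the collagen of *Col17a1*, its inner plaque is made of the plakins of *Dst* (the epidermal form of which is the bullous pemphigoid antigen BPAG1e) and *Plec*, and its ligand outside the cell is laminin-332, whose chains include those of *Lama3* and *Lamb3*. The integrin of *Itga3* and *Itgb1* binds the same laminin but sits in focal adhesions, which are joined to actin. Loss of several of these proteins causes blistering of the skin, and keratinocytes that leave the basal layer lose their hemidesmosomes.

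Levels are given as CPM, the count of a locus scaled by the normalized size of its library. *Sbsn*, the target of the siRNA, had a mean of 387 ± 64.9 CPM (SD, n = 3) in the siControl libraries of batch 2 and of 123 ± 1.95 CPM in siSbsn, without overlap. Its batch 1 levels were 1189 and 1356 CPM for siControl, 1965 and 696 CPM for siSbsn, and 1697 and 1231 CPM for no siRNA. The library labelled siSbsn batch 1 replicate 1 therefore had more *Sbsn* than any siControl library, against its label. The library siControl batch 1 replicate 1 stood apart in another way. In log2 deviation from the mean of all libraries, its median over the longest transcripts was lower by 1.895 than over the shortest (long minus short -1.895). The other 11 libraries lay between -0.430 and 0.529. Lowest among them were siControl batch 1 replicate 2 (-0.430), siSbsn batch 1 replicate 1 (-0.275) and siControl batch 2 replicate 3 (-0.219). The other libraries of batch 2 lay between 0.327 and 0.529. Results are also given without replicate 1 of siControl and of siSbsn in batch 1. Total counts ranged from 27934836 to 49553923. In all 9 pairs of libraries of a group the counts differed beyond sampling noise, with a chi-square of 4.472 to 203.6 per degree of freedom, and whether they came from separate cultures is not stated, so p-values measure the spread between these libraries. The 3 basal keratinocyte markers (*Krt5*, *Krt14*, *Trp63*) summed to between 16330 and 46910 CPM in each library. The 4 endothelial and 4 leukocyte markers summed to at most 3.21 and 2.43 CPM. The 6 fibroblast markers summed to between 358 and 1163 CPM and the 6 melanocyte markers to between 697 and 1035 CPM, so markers of other skin cells were present. The fibroblast sum was highest, at 1163 CPM, in the library labelled siSbsn batch 1 replicate 1. The other siSbsn library of batch 1 had 488 CPM, siControl of that batch 413 to 426 CPM and no siRNA 482 and 928 CPM. *Col1a1* (902 CPM), *Col1a2* (201 CPM), *Col3a1* (45.9 CPM) and *Pdgfra* (9.12 CPM) were each at their highest of all 12 libraries in siSbsn batch 1 replicate 1. *Lum* was at its lowest there (0.370 CPM). *Dcn*, at 4.50 CPM, was within its batch 1 range of 3.17 to 5.14 CPM and below its batch 2 range of 7.89 to 10.4 CPM. In batch 2 the fibroblast sum was 373 to 420.5 CPM in siControl and 358 to 393 CPM in siSbsn. The 4 differentiating keratinocyte markers (*Krt1*, *Krt10*, *Ivl*, *Lor*) summed to 555 CPM in the library labelled siSbsn batch 1 replicate 1 and to between 111 and 424 CPM elsewhere. *Krt1* made up 335 CPM and *Krt10* 70.2 CPM of the 555. *Ivl* (128 CPM) and *Lor* (21.0 CPM) were lower there than in siControl batch 1 replicate 1 (187 and 29.8 CPM). In batch 2 the sum of the 4 markers was 147 to 165 CPM in siControl and 111 to 133 CPM in siSbsn, without overlap. *Krt1* and *Krt10* were lower in siSbsn there without overlap, while *Ivl* (22.1 to 33.6 CPM in siControl, 26.1 to 31.1 CPM in siSbsn) and *Lor* (4.34 to 5.99 and 4.69 to 5.87 CPM) overlapped. The part of other cells and of differentiation in the results below was not tested, and in such bulk samples fewer cells of a type and less RNA per cell cannot be told apart.

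Most of these genes are long. In the GENCODE annotation of mm10, the build of the files, the longest transcript has 23279 bases for *Dst* (98 exons), 15455 for *Plec* (33 exons), 10548 for *Lama3* (75 exons), 6208 for *Itgb4* (40 exons), 5588 for *Col17a1* (54 exons), 4867 for *Lamb3* (27 exons), 4861 for *Itga3* (26 exons), 4310 for *Itga6* (26 exons) and 3815 for *Itgb1* (16 exons). The counted locus of *Dst* is chr1:33908225-34308662 on the plus strand and that of *Plec* is chr15:76170974-76243440 on the minus strand. *Col17a1* is at chr19:47646341-47692042 and *Itga3* at chr11:95044475-95076811, both on the minus strand. *Itga6* is at chr2:71786939-71858427, *Itgb4* at chr11:115974725-116012719, *Lamb3* at chr1:193207725-193343878 and *Itgb1* at chr8:128685654-128733579, all on the plus strand. Of the 9 loci, 4 were counted together with other names: *Itga6* with BC024571, *Itgb4* with AK140292 and *Galk1*, *Plec* with *Parp10*, and *Lamb3* with AK005414. *Galk1* is a galactokinase gene on the minus strand, and its reads cannot be separated from those of *Itgb4*, since the sources used here do not say whether counting used strand. *Parp10* is on the minus strand like *Plec*, so its reads cannot be separated from those of *Plec* by strand in any case. Each locus also pools all isoforms of its gene.

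Promoters were read from RefSeq (GRCm38.p6, 250 bases before to 50 after a start) and matched 5 of the 9 genes. A start each of *Lamb3* and *Itga3*, whose log2-fold changes of siSbsn against siControl were below 0, and of *Dst*, which had the highest, are shown. Capitals mark the GC box, GGGCGG on either strand, which binds Sp factors and is in 35.7% of all 32851 promoters of that length. The letters TGANTCA of the AP-1 site, searched likewise on both strands and found in 7.81% of all promoters, match in none of the 3 windows. RefSeq lists another start for each of the 3 genes, so the counts below hold for the windows shown.
*Lamb3* chr1:193301744-193302043 plus strand: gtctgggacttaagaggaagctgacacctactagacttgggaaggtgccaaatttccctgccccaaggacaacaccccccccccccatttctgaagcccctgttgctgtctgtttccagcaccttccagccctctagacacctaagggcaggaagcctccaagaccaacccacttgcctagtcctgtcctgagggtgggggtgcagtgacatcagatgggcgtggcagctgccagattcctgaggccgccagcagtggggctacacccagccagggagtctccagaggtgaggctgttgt
*Itga3* chr11:95076665-95076964 minus strand: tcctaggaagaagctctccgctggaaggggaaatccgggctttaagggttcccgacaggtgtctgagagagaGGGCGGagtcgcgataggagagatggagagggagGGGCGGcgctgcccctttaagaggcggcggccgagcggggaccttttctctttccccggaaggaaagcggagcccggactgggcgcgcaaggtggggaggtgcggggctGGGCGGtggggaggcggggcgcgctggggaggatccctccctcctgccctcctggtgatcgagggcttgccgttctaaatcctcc
*Dst* chr1:34011345-34011644 plus strand: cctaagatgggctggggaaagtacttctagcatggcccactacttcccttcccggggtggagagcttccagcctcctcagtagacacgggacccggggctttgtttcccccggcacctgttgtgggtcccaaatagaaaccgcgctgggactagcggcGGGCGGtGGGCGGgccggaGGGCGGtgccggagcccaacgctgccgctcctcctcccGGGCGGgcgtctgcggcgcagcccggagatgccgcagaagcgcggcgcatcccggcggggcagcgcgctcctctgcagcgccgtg
The *Dst* window held 4 GC boxes and the *Itga3* window 3, while the *Lamb3* window held 0. At the other start the count was 0 for *Dst*, 1 for *Itga3* and 0 for *Lamb3*, and that *Itga3* window also held 1 AP-1 match. The other *Dst* window, at chr1:34160010-34160309, had 46.0% G and C. Which start these cultures used was not tested, so the windows shown may not be the ones in use. G and C made up 70.3%, 66.7% and 59.3% of the bases of the windows shown. A match describes the letters only, and no data of this series bear on what binds there.

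Compared per length, *Itgb4* and *Col17a1* of the transmembrane core had the highest levels, while *Itga6* of the same core was the eighth of the 9 genes. CPM per kilobase of the longest transcript was 213 ± 24.4 (SD, n = 12 libraries) for *Itgb4* and 203 ± 36.0 for *Col17a1*, followed by 145 ± 20.5 for *Itgb1*. *Itga3* (67.1 ± 17.0), *Lamb3* (55.6 ± 6.75), *Plec* (53.3 ± 12.7), *Dst* (45.6 ± 18.5), *Itga6* (36.5 ± 6.56) and *Lama3* (33.9 ± 5.82) lay in a narrower band below. The order held in every library only for *Col17a1* above *Itgb1* and for *Itgb1* above *Itga3*. *Itgb4* was above *Col17a1* in 9 of 12 libraries, and libraries of both batches went the other way. The difference in level between these 2 neighbours was not tested. *Lamb3* was above *Plec* in 7 libraries and *Dst* above *Itga6* in 6, and these orders followed the batch. *Dst* was below *Itga6* in every library of batch 1 and above it in every library of batch 2. *Lamb3* was above *Plec* in every library of batch 1 and below it in batch 2, except in siControl replicate 3. The other 3 neighbouring pairs kept their order in 10 or 11 libraries. The plot of levels per length shows this band.

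**Figure D1:**
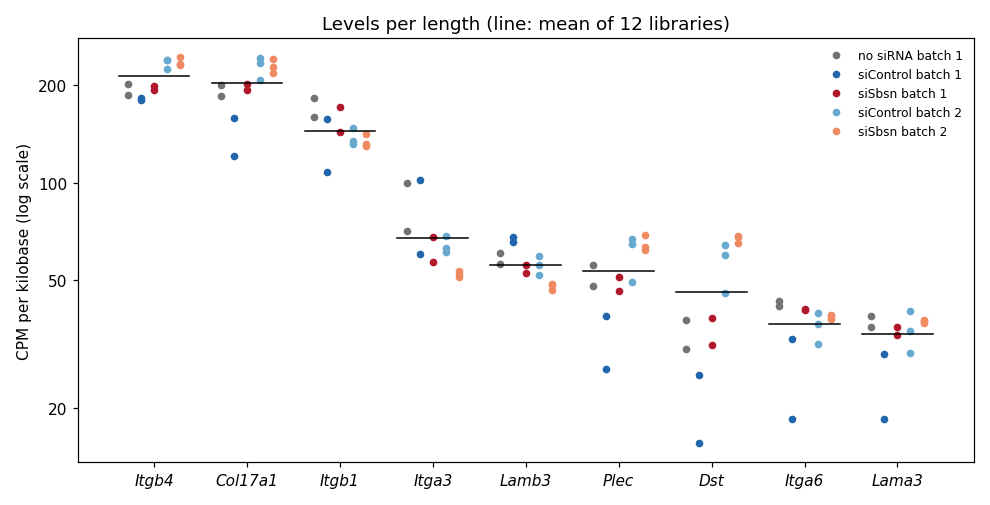
Level of each gene in CPM per kilobase of its longest transcript (log scale), for every library, coloured by group, with the mean of 12 libraries as a line. Itgb4, Col17a1 and Itgb1 lie above the other 6 genes, and the lowest points of Plec, Dst, Itga6 and Lama3 belong to siControl of batch 1.

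The chains of each receptor were unequal in level. *Itga6* was at 36.5 CPM per kilobase against 213 for its partner *Itgb4*, whose locus also holds *Galk1*, and *Itga3* was at 67.1 against 145 for *Itgb1*, which also pairs with other alpha chains. Such levels rest on the longest transcript, and a shorter isoform would raise the level of its gene.

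*Itga6* codes for the alpha chain of the hemidesmosomal integrin. Its level in CPM was 79.8 and 141 in siControl of batch 1, 174 and 173 in siSbsn and 185 and 178 in no siRNA. The siControl libraries of batch 2 had 157, 170 and 136 CPM, and siSbsn had 165, 163 and 168 CPM. The siSbsn libraries were close to each other and to the cultures without siRNA, siControl of batch 1 was lower than both, and in batch 2 the groups overlapped. The log2-fold change of siSbsn against siControl was 0.32 (SE 0.16, edgeR q = 0.266). SE is the standard error, and q is the p-value of edgeR's quasi-likelihood fit, with batch in the model, adjusted over all loci that passed the filter.

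*Itgb4* codes for the beta chain, whose long tail binds plectin. In batch 1 the siControl cultures had 1123 and 1137 CPM, the siSbsn cultures 1198 and 1239 CPM and those that got no siRNA 1163 and 1257 CPM. Batch 2 gave 1489, 1490 and 1392 CPM for siControl and 1519, 1435 and 1444 CPM for siSbsn. The log2-fold change of siSbsn against siControl was 0.06 (SE 0.07, edgeR q = 0.605), and the groups overlapped in batch 2.

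*Col17a1* codes for the transmembrane collagen XVII, the antigen BP180. The siControl libraries of batch 1 had 675 and 883 CPM, siSbsn had 1132 and 1083 CPM, and no siRNA had 1119 and 1040 CPM. For batch 2 the levels were 1316, 1362 and 1163 CPM for siControl and 1348, 1220 and 1276 CPM for siSbsn, with means of 1280 ± 104 and 1281 ± 64.1 CPM (SD, n = 3 each). The siControl libraries of batch 1 were the 2 lowest of the 12, and in batch 2 the groups overlapped. The log2-fold change was 0.21 (SE 0.12, edgeR q = 0.302).

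*Dst* and *Plec* code for the plakins of the inner plaque, which bind keratin filaments. *Dst* had 362 and 589 CPM in siControl of batch 1, 727 and 883 CPM in siSbsn, and 711 and 869 CPM in no siRNA. Its batch 2 levels were 1390, 1488 and 1055 CPM for siControl and 1580, 1584 and 1510 CPM for siSbsn. It was the only one of the 9 genes whose siSbsn libraries were all above the siControl libraries of their batch in both batches, an order found in 5.13% of the 12857 loci tested, of all lengths. Its log2-fold change was 0.46 (SE 0.16, unadjusted p = 0.0169, edgeR q = 0.254). *Plec* had 408 and 597 CPM in siControl of batch 1, 710 and 789 CPM in siSbsn, and 736 and 855 CPM in no siRNA. Its batch 2 levels were 994, 1035 and 759 CPM for siControl and 1063, 955 and 978 CPM for siSbsn. The groups overlapped in batch 2, where siControl replicate 3 was the lowest library for *Dst*, *Plec*, *Col17a1*, *Itga6* and *Lama3* alike. The log2-fold change of *Plec* was 0.30 (SE 0.14, edgeR q = 0.265).

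*Lama3* and *Lamb3* code for the alpha and beta chains of laminin-332, and they lay on opposite sides of 0. *Lama3* had 195 and 310 CPM in siControl of batch 1, 355 and 377 CPM in siSbsn, and 375 and 407 CPM in no siRNA, while batch 2 gave 365, 421 and 312 CPM for siControl and 392, 387 and 396 CPM for siSbsn. *Lamb3* had 330 and 318 CPM in siControl of batch 1, 271 and 254 CPM in siSbsn, and 271 and 294 CPM in no siRNA, while batch 2 gave 251, 270 and 288 CPM for siControl and 225, 236 and 235 CPM for siSbsn. Every siSbsn library had less *Lamb3* than every siControl library of its batch, in both batches, an order that holds for 4.22% of the loci tested. The log2-fold change was 0.28 (SE 0.14, q = 0.275) for *Lama3* and -0.24 (SE 0.07, unadjusted p = 0.00441, q = 0.254) for *Lamb3* by the edgeR test. DESeq2 gave *Lamb3* a q of 0.0133 at a log2-fold change of -0.24, under the size of 0.5 needed for a call, and 0.724% of the loci with a DESeq2 q were lower at a q under 0.05.

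*Itga3* and *Itgb1* code for the other laminin receptor. *Itga3* had 292 and 496 CPM in siControl of batch 1, 276 and 330 CPM in siSbsn, and 344 and 484 CPM in no siRNA. Batch 2 gave 297, 331 and 305 CPM for siControl and 259, 248 and 253 CPM for siSbsn, with no overlap. *Itgb1* had 410 and 602 CPM in siControl of batch 1, 655 and 546 CPM in siSbsn, and 697 and 608 CPM in no siRNA, while batch 2 gave 501, 562 and 514 CPM for siControl and 496, 540 and 504 CPM for siSbsn. The *Itgb1* groups overlapped in both batches. The log2-fold change was -0.32 (SE 0.13, unadjusted p = 0.0295, q = 0.256) for *Itga3* and 0.08 (SE 0.12, q = 0.642) for *Itgb1* by the edgeR test. The high *Itga3* value of siControl batch 1 replicate 2 stood apart, and without that library the log2-fold change of *Itga3* was -0.17 over both batches and -0.0002 in batch 1, where the remaining siControl library lay between both siSbsn libraries. Without siControl batch 1 replicate 1, which leaves the high library as the control of that batch, it was -0.42 over both batches.

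**Figure D2:**
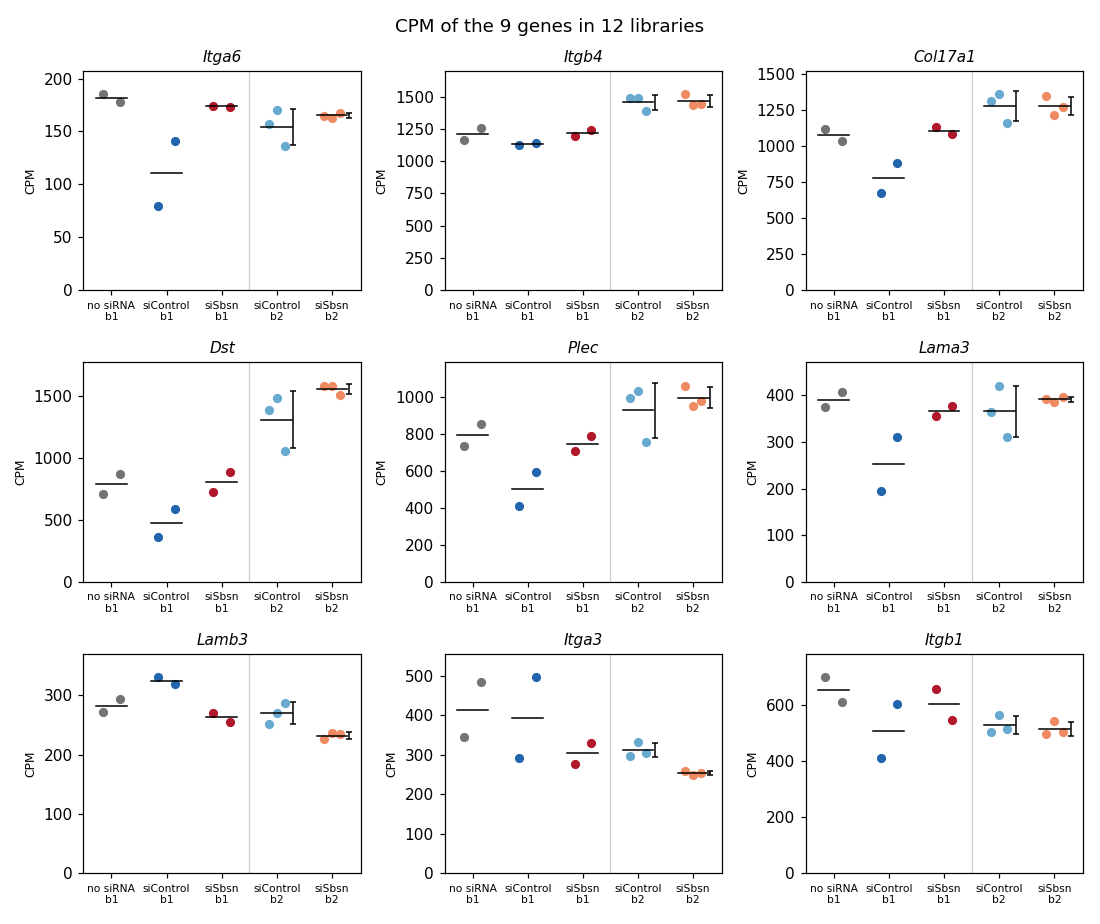
CPM of each gene in every library, by group (b1 and b2 are the batches), with the group mean as a line and, for groups of 3, the SD as a bar. The lowest point of Itga6, Itgb4, Col17a1, Dst, Plec, Lama3 and Itgb1 is siControl batch 1 replicate 1, while Lamb3 is highest there, at 330 CPM.

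Over both batches, siSbsn was compared with siControl to ask whether lowering *Sbsn* changes these genes. In total, 7 of the 9 had a log2-fold change above 0 and 2 below, and the median was 0.21, against 0.01 over the 12857 loci tested, of which 50.7% were above 0. Genes were called where the log2-fold change exceeded 0.5 either way with a q (Benjamini-Hochberg) under 0.05, and edgeR called 0 of the 9 genes and 0% of all loci, *Sbsn* included (q = 0.254). Before adjustment 2464 loci had a p under 0.05, *Dst*, *Lamb3* and *Itga3* among them. By DESeq2, 93 loci were called, 0.801% of the 11610 that received a q, and none of the 9 genes. Without the 2 libraries in doubt, replicate 1 of siControl and of siSbsn in batch 1, the log2-fold changes were 0.34 for *Dst*, 0.18 for *Plec*, 0.15 for *Itga6*, 0.15 for *Lama3*, 0.08 for *Col17a1*, 0.05 for *Itgb4*, -0.05 for *Itgb1*, -0.23 for *Lamb3* and -0.36 for *Itga3*. *Lamb3* kept about its size, and the value of *Itga3* then rests in batch 1 on the siControl library that stood apart, while *Itga6*, *Col17a1*, *Plec* and *Lama3* moved toward 0 by over 1.5 times. None of the 9 genes was called, against 1 of 12890 loci (0.00776%), and the smallest q among the 9 was 0.0943, for *Itga3*.

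Each batch was also fitted on its own. *Sbsn* itself was at 0.03 in batch 1 (SE 0.45, edgeR q = 0.975). In batch 1 the log2-fold change was 0.73 for *Dst*, 0.62 for *Itga6*, 0.55 for *Plec*, 0.51 for *Lama3* and 0.48 for *Col17a1*, with standard errors from 0.21 to 0.27. *Itgb1* (0.22), *Itgb4* (0.07), *Lamb3* (-0.34) and *Itga3* (-0.41) made up the rest. Both siSbsn libraries lay above both siControl libraries for 6 of the 9 genes, an order found in 25.2% of the loci tested, and below it for *Lamb3* alone, against 25.9%. These shares cover loci of all lengths, and change followed length, as given below, so they are not matched to these long genes. With edgeR 0 of the 9 genes and 0% of 13176 loci were called in batch 1 (2077 loci with a p under 0.05 before adjustment, and 168 called by DESeq2). The siControl library of replicate 1 had the lower value of these 5 genes, and without it *Dst* was at 0.44, *Plec* at 0.32, *Col17a1* at 0.32, *Itga6* at 0.29, *Lama3* at 0.23 and *Itga3* at -0.72. Without siControl batch 1 replicate 2, so that replicate 1 was the lone control and was assumed to vary like the other groups, 5 of the 9 genes were called, with *Dst* at 1.10 and *Itga6* at 1.06, and so were 19.3% of all loci. A single fit of all 12 libraries called 1 of the 9 genes, *Col17a1* (0.51, edgeR q = 0.0484), and 9.54% of all loci.

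In batch 2, where *Sbsn* was lowered in every siSbsn library (log2-fold change -1.64, SE 0.10, edgeR q = 0.00056), the values lay closer to 0, with smaller errors. *Dst* was at 0.25, *Plec* at 0.11, *Itga6* at 0.10, *Lama3* at 0.10, *Itgb4* and *Col17a1* at 0.01, *Itgb1* at -0.03, *Lamb3* at -0.21 and *Itga3* at -0.29, with standard errors from 0.06 to 0.12. The groups of 3 did not overlap for *Dst*, which was higher, against 9.39% of loci of all lengths, and for *Lamb3* and *Itga3*, which were lower, against 9.19%. edgeR called 1 of 12924 loci, *Sbsn*, or 0.00774%. *Itga3* had a q of 0.355 with edgeR (unadjusted p = 0.00122). It fell with q = 0.0239 by DESeq2, where 0.316% of loci with a q were lower at a q under 0.05, and with q = 0.00398 by edgeR when siControl batch 2 replicate 3 was left out (0.459% of loci lower at that level), and in each case the change was under the size of a call. The test of the difference between batches called 0 of the 9 genes and 0% of the 12857 loci (smallest q 0.301 among the 9, for *Col17a1*, with 1945 loci under 0.05 before adjustment, and 208 called by DESeq2). Without siControl batch 1 replicate 2 that test called 6 of the 9 genes and 33.9% of all loci.

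**Figure D3:**
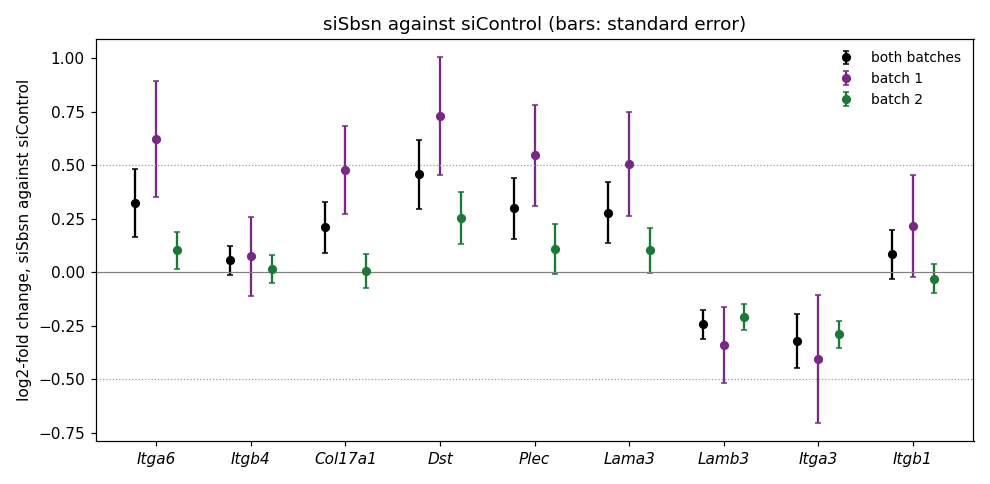
Log2-fold change of siSbsn against siControl with its standard error, over both batches (black), in batch 1 (purple) and in batch 2 (green), and dotted lines at the size needed for a call. Dst reaches 0.73 in batch 1 and 0.25 in batch 2, and Lamb3 and Itga3 lie below 0 in both.

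Change followed transcript length across the whole table, so each gene was set beside loci of a similar range of length. The loci tested were split into 10 groups of about equal number by longest transcript. The median log2-fold change of siSbsn against siControl over both batches ran from -0.29 in the shortest group to 0.35 in the longest. It ran from -0.59 to 0.59 in batch 1 alone and from -0.12 to 0.16 in batch 2 alone. Over both batches the longest group runs from 6947 to 123179 bases, so its loci are only roughly of like length. Which isoforms the cultures made was not tested. The shortest coding transcript has 5551 bases for *Lama3* and 776 for *Dst*, and a shorter form could place a gene in another group. *Dst*, *Plec* and *Lama3* belong to that longest group, and their values of 0.46, 0.30 and 0.28 lay around its median. *Col17a1* was at the median of its group (0.21) and *Itgb4* below it, and *Itgb1* was close to its own (0.03). *Itga6* was higher than 88.5% of the loci of its length. *Lamb3* and *Itga3* were in a group whose median was 0.13, of which only 5.10% and 2.71% lay below them.

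**Figure D4:**
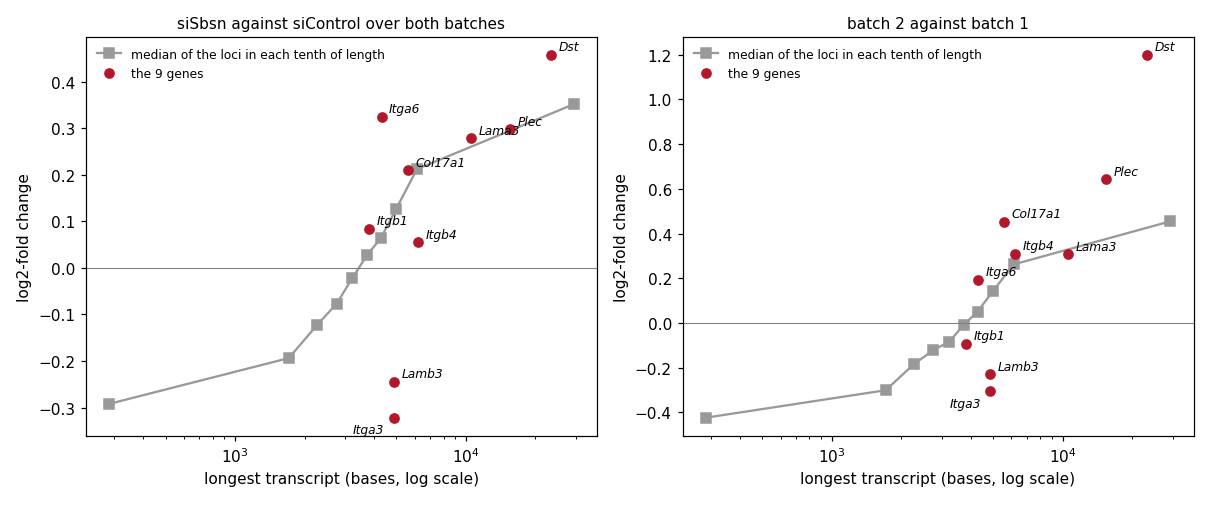
Log2-fold change against the length of the longest transcript (log scale) for siSbsn against siControl over both batches (left) and batch 2 against batch 1 (right), with grey squares for the median of the loci in each of 10 groups by length and red points for the 9 genes. On the left Dst, Plec, Lama3 and Col17a1 lie near the grey line, Itga6 above it, and Lamb3 and Itga3 below it.

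When the trend on length was removed from each library before the fit, only 3 of the 9 genes stayed above 0. *Itga6* was then at 0.27, *Itgb1* at 0.07 and *Col17a1* at 0.05, while *Lama3* went to -0.11, *Itgb4* to -0.17, *Dst* to -0.20 and *Plec* to -0.23. *Lamb3* and *Itga3* were at -0.36 and -0.42, further from 0 than before. None of the 9 was called over both batches. In batch 2 *Itga3* was then at -0.33 with q = 0.0251 by edgeR, where 0.124% of loci were lower at a q under 0.05. Over both batches the direction of *Dst*, *Plec*, *Lama3* and *Itgb4* thus depended on this step, and that of the other 5 did not.

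The balance between partners can be read within a library, free of library size. The log2 ratio of *Itga6* to *Itga3* counts, the alpha chains of both laminin receptors, was -1.87 and -1.81 in siControl and -0.66 and -0.93 in siSbsn of batch 1, and -0.89 and -1.44 without siRNA. In batch 2 it was -0.92, -0.96 and -1.17 in siControl and -0.65, -0.61 and -0.60 in siSbsn. The ratio was higher in siSbsn than in siControl in both batches without overlap, by 0.66 on the log2 scale (exact two-sided permutation test within batches, p = 0.0167, adjusted p = 0.0222 over the 4 ratios), and 0.0167 is the smallest p that the design allows. The difference was 1.04 in batch 1 and 0.40 in batch 2. These transcripts are of like length, 4310 and 4861 bases, and the difference between their fitted log2-fold changes was 0.65 before and 0.69 after the length trend was removed. How often ratios of other pairs of genes separate the groups in both batches was not tested. Single loci did so in 5.13% (siSbsn above) and 4.22% (siSbsn below) of the 12857 tested. The 4 ratios were chosen with earlier results of these data known.

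The ratio of *Lama3* to *Lamb3* was -0.76 and -0.04 in siControl and 0.39 and 0.57 in siSbsn of batch 1, and 0.47 in both libraries without siRNA. In batch 2 it was 0.54, 0.64 and 0.12 in siControl and 0.80, 0.71 and 0.75 in siSbsn. It was higher in siSbsn by 0.54 (exact permutation test, p = 0.0167, adjusted p = 0.0222). In batch 1 the libraries without siRNA lay with siSbsn, above siControl. By their longest transcripts, of 10548 and 4867 bases, these chains differ in length. The difference between their fitted changes was 0.52 before and 0.25 after the trend was removed. The shortest coding transcript of *Lama3* has 5551 bases, closer to *Lamb3*, and the effect of that choice of length was not tested.

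The ratio of *Dst* to *Plec*, whose locus also holds *Parp10*, was higher in siSbsn by 0.17 (exact permutation test, p = 0.0167, adjusted p = 0.0222), at 0.19 in batch 1 and 0.15 in batch 2. After the length trend was removed the difference between their fitted changes was 0.03. The ratio of *Itgb4* to *Itgb1* differed by -0.04 (exact permutation test, p = 0.783), and its groups overlapped in both batches. Without siSbsn batch 1 replicate 2, the library of that group with lowered *Sbsn*, the adjusted p of the 3 ratios that passed was 0.0667 each, with differences of 0.64 for *Itga6* to *Itga3*, 0.47 for *Lama3* to *Lamb3* and 0.14 for *Dst* to *Plec*. Leaving out instead the library labelled siSbsn batch 1 replicate 1 gave adjusted p-values of 0.0333, 0.0444 and 0.0333.

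**Figure D5:**
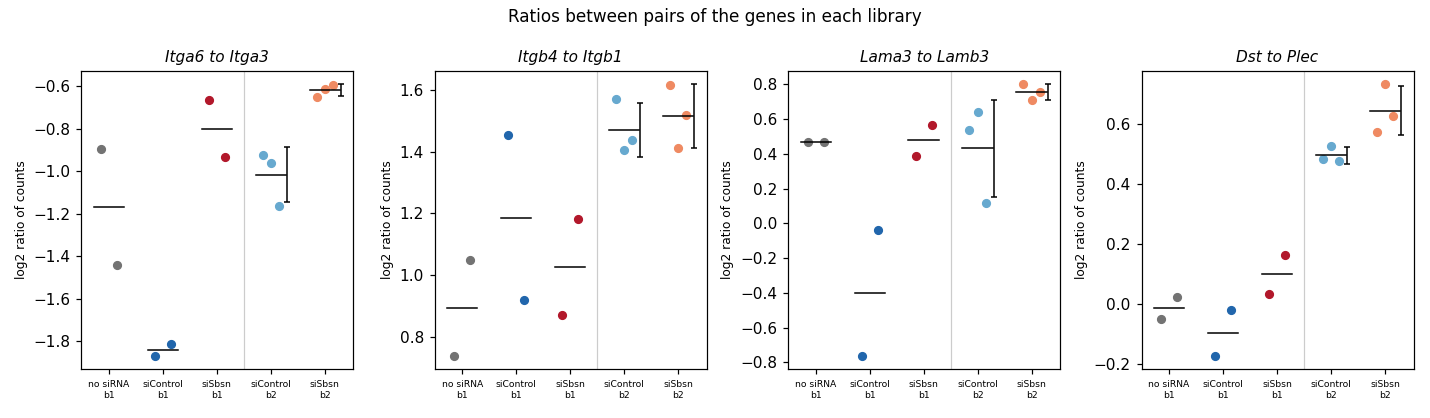
Log2 ratio of counts between 2 of the genes in every library, by group (b1 and b2 are the batches), with the group mean as a line and, for groups of 3, the SD as a bar. Itga6 to Itga3, Lama3 to Lamb3 and Dst to Plec are higher in siSbsn than in siControl in both batches, and Itgb4 to Itgb1 overlaps.

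Cultures without siRNA, present in batch 1 only, give a second reference. Against them the log2-fold change of siControl was below 0 for 8 of the 9 genes, with values of -0.70 for *Dst*, -0.69 for *Itga6*, -0.63 for *Plec*, -0.60 for *Lama3*, -0.44 for *Col17a1*, -0.34 for *Itgb1*, -0.06 for *Itgb4* and -0.04 for *Itga3*, and 0.23 for *Lamb3*. None was called by edgeR, which called 0% of 13176 loci (2116 under a p of 0.05 before adjustment, and 26 called by DESeq2). Without siControl batch 1 replicate 2, 5 of the 9 genes and 23.7% of all loci were called. The median ran from 0.65 in the shortest transcripts to -0.69 in the longest. With the length trend removed, *Dst* (0.53), *Itgb4* (0.39), *Plec* (0.38), *Lama3* (0.16) and *Itga3* (0.16) lay above 0.

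Against the same cultures siSbsn was nearly level for 8 of the 9 genes, between -0.12 and 0.04, and *Itga3* was at -0.45 (SE 0.30, edgeR q = 1.00). *Sbsn* itself was at -0.14 (SE 0.45) in this comparison, so no clear lowering of the target was seen. edgeR called 0% of loci, with 23 loci under a p of 0.05 before adjustment, and DESeq2 also called 0. The trend on length was small in size there, with medians from 0.06 in the shortest group to -0.08 in the longest. The share of loci above 0 fell from 64.9% in the shortest group to 27.9% in the longest, opposite in direction to siSbsn against siControl. These comparisons share libraries with siSbsn against siControl in batch 1, so they are the same measurements seen from another reference.

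Between batches the plakins differed most. In batch 2 relative to batch 1, with treatment in the model, *Dst* rose by 1.20 on the log2 scale (SE 0.17, q = 0.00033) and *Plec* by 0.64 (SE 0.15, q = 0.00463) by the edgeR test, and both were called, as were 16.4% of loci upward and 21.3% downward. *Col17a1* (0.45, q = 0.0106) and *Itgb4* (0.31, q = 0.00445) rose and *Lamb3* fell (-0.23, q = 0.0167) at a q under 0.05 but under the size of a call, and 54.8% of all loci passed that q. *Lama3* (0.31, q = 0.0967), *Itga6* (0.19, q = 0.332), *Itgb1* (-0.09, q = 0.517) and *Itga3* (-0.31, q = 0.0665) did not pass. *Dst* was higher than 92.8% of the loci in the group of longest transcripts, which spans 6947 to 123179 bases. With the length trend removed *Dst* was at 0.16 and *Plec* at -0.18 and neither was called, while *Lama3* was at -0.27 (q = 0.00255) and *Itga3* at -0.43 (q = 0.00246), where 30% of loci were lower at a q under 0.05. What the batches were beyond their label is not given, and *Sbsn* itself was lower in batch 2 by a log2-fold change of -2.63.

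Genes that work with these 9 were looked at in 3 lists. The first held 7 partners and processing factors, namely *Cd151*, *Col7a1*, *Krt5*, *Krt14*, *Fermt1*, *Bmp1* and *Erbb2ip*, and for siSbsn against siControl over both batches 3 were above and 4 below 0 with 0 called. They ran from *Krt14*, the basal keratin, at -0.23 (q = 0.390) to *Erbb2ip*, whose protein Erbin binds integrin beta 4 and BPAG1e, at 0.59 (SE 0.23, edgeR q = 0.255). *Col7a1*, the anchoring fibril collagen, was at 0.12. Between batches *Erbb2ip* was called higher (0.76), and *Krt14* (-0.84), *Krt5* (-0.93) and *Col7a1* (-1.60) lower.

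The second list held 13 further basement membrane genes, of which *Frem1* failed the filter and *Col4a1* and *Col4a2* were counted as 1 locus, leaving 11 loci. For siSbsn against siControl 9 were above and 2 below 0, with a median of 0.16, and edgeR called 0. With the length trend removed 4 were above and 7 below, with a median of -0.10, and in batch 2 alone 5 were above and 6 below. They ran from *Nid2*, a nidogen, at -0.24 (q = 0.361) to *Fras1*, a component of the embryonic basement membrane, at 0.95 (SE 0.22, q = 0.254). *Fras1* had between 2.16 and 10.5 CPM, was called by DESeq2 (0.96, q = 0.00879), and was at 0.44 with the length trend removed. Between batches *Fras1* (0.99), *Frem2* (1.03) and *Lama5* (1.10), the alpha chain of another skin laminin, were called higher. With the length trend removed *Fras1* (0.18, q = 0.303) and *Frem2* (0.41, q = 0.0926) were no longer called by edgeR, *Lama5* was still called, and the locus of *Col4a1* and *Col4a2* was called lower.

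The third list held 16 other integrins and focal adhesion genes, of which 10 were above and 6 below 0 with a median of 0.08, and edgeR called 0. With the length trend removed the counts turned to 6 above and 10 below, with a median of -0.03, and they were also 6 and 10 in batch 2 alone. They ran from *Pxn*, paxillin, at -0.19 (q = 0.266) to *Itgb8* at 1.05 (SE 0.57, q = 0.286), a gene at 0.288 to 11.7 CPM that DESeq2 called in batch 1 (2.54, q = 0.0421). Between batches *Itga9* (0.61), *Lims1* (0.73) and *Pxn* (0.70) were called higher, of which *Itga9* (0.27, edgeR q = 0.131) was not called with the length trend removed. In none of the other 6 comparisons did edgeR call a gene of the 3 lists.

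The loci whose log2 CPM over 12 libraries was most like that of *Itgb4* were that of AK168184, *Nfix* and *Lyl1* (Pearson r = 0.99), *Col19a1* (0.99) and *Per1* (0.98), with longest transcripts of 5476, 5441 and 4671 bases. Among the 9 genes *Dst* was the most like it (0.94), *Itga6*, its partner, had 0.34, and *Lamb3* (-0.74), *Itga3* (-0.51) and *Itgb1* (-0.30) had values below 0. With the mean of each batch taken out, *Ift172* (0.94), *Ranbp10* (0.94) and *Nr3c2* (0.91) were the most like it, and *Itga6* had 0.64, *Itgb1* 0.26 and *Itga3* 0.13. The libraries share batches and the trend on length, so these values describe the 12 libraries only.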

How the data were processed

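RNA-Seq was measured in 12 libraries of mouse primary keratinocyte cultures (2 no siRNA, 5 siControl, 5 siSbsn), grouped by the sample labels. The authors aligned the reads to mm10 with STAR, kept those that aligned uniquely, counted them on genes of the UCSC annotation with overlapping genes joined, and deposited whole-number counts without normalization. Reads shared by near-identical copies are thereby lost, and joined genes share their counts.

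The main test was edgeR 4.0.16 in R 4.3.3, by quasi-likelihood after TMM scaling, over all loci that passed its filter on low counts by treatment, with batch in the model where both batches entered. Standard errors (SE) of edgeR were obtained from the size of the change and the root of its F statistic. DESeq2 1.42.0 and limma-voom (limma 3.58.1) were alternatives, as were other normalization, no filter, each library left out, a replicate block, and removal of a lowess trend (span 0.3) of log2 counts on transcript length. Values of single libraries are CPM on the normalized size of the 13562 loci that passed over 12 libraries, with 0.5 added before log2 in correlations. The scripts were checked on simulated counts. Lengths and exons are from GENCODE M21 and promoters from RefSeq.

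The 9 genes, the 3 lists and the tests were chosen with earlier results of these data known. Beside the 9 genes and Sbsn, genes of the lists are named if called or if they had the largest or smallest change over both batches, together with the 3 loci most like Itgb4 by correlation. A further gene of the first list is not reported here. Total counts per library and their range are given above, and no interval covers more than the spread between libraries.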

Additional observations from a re-analysis of the deposited data

Results flagged for a closer look

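*Itga3* in siControl batch 1 replicate 2, at 496 CPM, stood apart from the other 4 siControl libraries of both batches, which lay between 292 and 331 CPM. Its gap to the next library was 0.760 of the whole range, above the critical value of 0.71 for 5 values. Of 20 groups looked at (the 9 genes and *Sbsn*, each in siControl and siSbsn) this was the only one, and chance alone flags about 1 in 20. The library without siRNA batch 1 replicate 2 was also high, at 484 CPM. None of the 9 genes passed the test of a difference in siSbsn effect between the batches. None had its siSbsn libraries all above the siControl libraries in one batch and all below them in the other.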

How the results depend on the processing

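No alternative called any of the 9 genes for siSbsn against siControl over both batches, in batch 2 alone, or for siSbsn against no siRNA. In batch 1 a fit of all 12 libraries called 1 (*Col17a1*), and leaving out a library gave 0 to 5 called genes, as it did for siControl against no siRNA, and 0 to 6 for the test of the difference between batches. Each highest count came without siControl batch 1 replicate 2, where 19.3%, 23.7% and 33.9% of all loci were called in these 3 comparisons, and the fit of all 12 libraries called 9.54%. For batch 2 against batch 1 the 2 called genes went to 0 with the length trend removed, and leaving out a library gave 2 to 3.

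With the trend on transcript length removed, log2-fold changes for siSbsn against siControl over both batches turned to -0.17 for *Itgb4*, -0.20 for *Dst*, -0.23 for *Plec* and -0.11 for *Lama3*. They were -0.32, -0.30, -0.30 and -0.13 in batch 1 and -0.078, -0.16, -0.20 and -0.11 in batch 2, where *Col17a1* was at -0.060. The difference between batches became 0.24, 0.20, 0.13 and 0.029 for the same 4 genes. For siControl against no siRNA *Itgb4*, *Dst*, *Plec*, *Lama3* and *Itga3* came to 0.39, 0.53, 0.38, 0.16 and 0.16, and for siSbsn against no siRNA *Plec* and *Lama3* came to 0.079 and 0.028. For batch 2 against batch 1 *Plec* was at -0.18 and *Lama3* at -0.27. Without both libraries in doubt, an alternative chosen after seeing the data, *Itgb1* was at -0.055. The causes of these reversals were not tested.

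Leaving out each library moved some values near 0 across it. Over both batches *Itgb1* ran from -0.021 to 0.15, and in batch 1 from -0.013 to 0.49. For batch 2 the ranges were -0.029 to 0.046 for *Itgb4*, -0.070 to 0.068 for *Col17a1*, -0.029 to 0.21 for *Plec*, -0.012 to 0.23 for *Lama3* and -0.070 to 0.036 for *Itgb1*. *Itga3* ran from -0.38 to 0.43 for the difference between batches and from -0.45 to 0.27 for siControl against no siRNA. For siSbsn against no siRNA the ranges were -0.045 to 0.068 for *Itgb4*, -0.014 to 0.091 for *Col17a1*, -0.13 to 0.18 for *Dst*, -0.19 to 0.027 for *Plec* and -0.25 to 0.0017 for *Itgb1*, and for batch 2 against batch 1 *Itgb1* ran from -0.21 to 0.0042. The log2 ratio differences ran from 0.55 to 0.72 for *Itga6* to *Itga3*, from 0.38 to 0.63 for *Lama3* to *Lamb3*, from 0.14 to 0.19 for *Dst* to *Plec* and from -0.10 to 0.064 for *Itgb4* to *Itgb1*.

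In batch 1 the deviations of the libraries numbered 1 from their group means correlated across loci at 0.38 to 0.81 between groups, a hint only with 2 libraries a group. With a replicate block *Dst* was at 0.47 (edgeR q = 0.113) over both batches and 0.76 (q = 0.123) in batch 1, and 0 of the 9 genes were called in any of the 4 comparisons fitted so. Standard errors of the 9 genes were 0.18 to 0.30 in batch 1, with 2 libraries a group, and 0.06 to 0.12 in batch 2, with 3, which limits what could be called. Of 951 values recomputed under an alternative, 848 kept their direction and their side of the threshold or moved by less than their spread.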
